A study of Mus musculus with 5 samples.

Results

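CD4 T cells are the T helper and regulatory T cells of the adaptive immune system, and here they were read from mouse cortex after traumatic brain injury (TBI). They were chosen by measured values. Barcodes were kept from 500 unique molecular identifiers (UMIs, counted RNA molecules) and 200 genes upwards, where mitochondrial genes gave no more than 20% of UMIs. A kept barcode was taken as a CD4 T cell when it had at least 2 of the 6 T cell receptor genes Cd3d, Cd3e, Cd3g, Trac, Trbc1 and Trbc2, a UMI of Cd4 and 0 UMIs of Cd8a and Cd8b1. The microglial genes C1qa, C1qb and C1qc also had to make up less than 0.2% of its UMIs. This gave 762 CD4 T cells of 58411 barcodes that passed the filters, out of 60574 deposited. The cells came from 5 droplet single-cell RNA sequencing libraries of C57BL/6J mice, 1 each from sham-operated cortex and from the injury site 1, 3, 7 and 14 days after TBI. Sham animals had the same strain and no injury, and the labels name no site for that library. Tissue was dissociated with papain and DNase and cleared of debris on Percoll, and only cells that passed through that handling were read. The number, age and sex of the mice behind each library and the way of injury are not given in the sources used here. Each group is 1 library, so no test was run, every interval is a 95% range from counting error alone, and each difference describes libraries and not conditions.

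CD4 T cells recognise peptides on MHC class II molecules through the T cell receptor and its CD3 chains, with CD4 as co-receptor. After activation they take on programmes known by their regulators and cytokines, such as Th1 (Tbx21, interferon gamma), Th17 (interleukin 17A) and regulatory T cells (Foxp3), which restrain other T cells. The uninjured brain holds few of them, and after injury they enter with other blood leukocytes and can stay in the tissue.

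Cd4 lies at chr6:124864692-124888221 on the minus strand of GRCm38, and Cd3e, a CD3 chain, at chr9:44998740-45009627 on the minus strand. Foxp3 lies at chrX:7573644-7595245 and Ltb, the lymphotoxin beta ligand, at chr17:35194439-35196320, both on the plus strand. The costimulatory receptor Cd28 at chr1:60716800-60773359, the inhibitory receptor Ctla4 at chr1:60887000-60915832 and the inducible costimulator Icos at chr1:60977927-61000320 are neighbours on the plus strand of 1 chromosome. Il17a, the interleukin 17A gene, is on the plus strand at chr1:20730905-20734496, and Maf, a transcription factor of interleukin-producing helper cells, is on the minus strand at chr8:115682942-115707794. All are protein-coding genes, and a UMI was counted for the gene as a whole, without naming an exon.

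Nearly all CD4 T cells were in the 2 late libraries. The sham library held 0 of 11525 barcodes, which allows a share of up to 0.0260%. The day 1 library held 1 (0.00787% of 12705) and the day 3 library 7 (0.0709% of 9877, interval 0.0285% to 0.146%). The day 7 library held 88 of 12358, or 0.712% (0.571% to 0.877%). The day 14 library held 666 of 11946, or 5.58% (5.17% to 6.00%), and its interval did not overlap that of any other library.

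**Figure D1:**
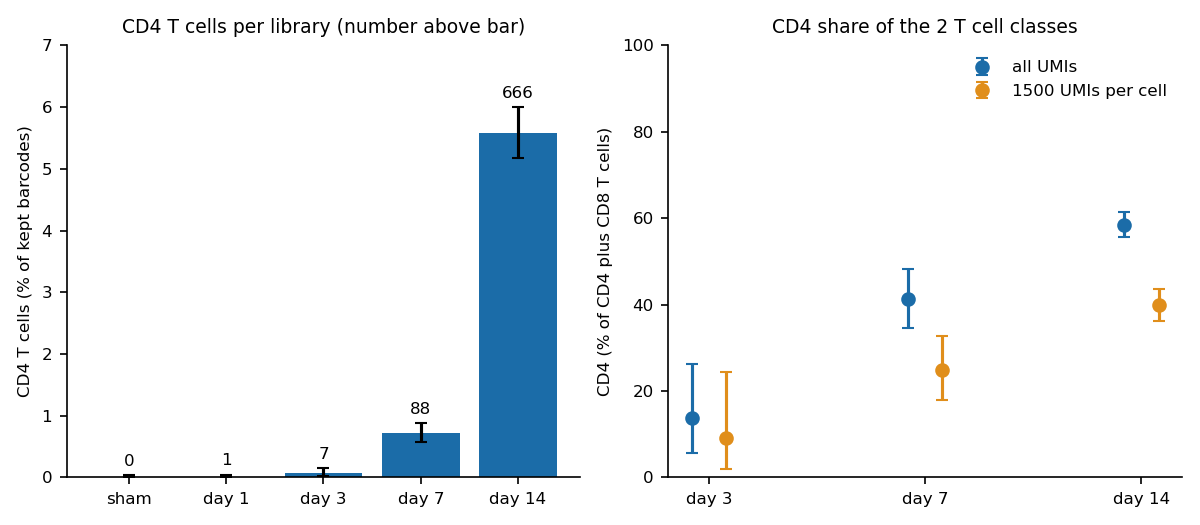
Left, CD4 T cells as a percentage of the barcodes kept in each of the 5 libraries, with the number of cells above each bar. Right, CD4 T cells as a percentage of CD4 plus CD8 T cells at days 3, 7 and 14, from all UMIs and after each cell was thinned to 1500 UMIs. Bars and points are single libraries and the error bars are exact 95% intervals of counting. The share of CD4 T cells was 5.58% at day 14 against 0.712% at day 7.

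The CD4 share of T cells also differed between the libraries. CD8 T cells, taken by the same rule with Cd8a or Cd8b1 detected and 0 UMIs of Cd4, numbered 2, 3, 44, 125 and 472 from sham to day 14. CD4 T cells made up 7 of the 51 cells of both classes at day 3 (13.7%, 5.70% to 26.3%), 88 of 213 at day 7 (41.3%, 34.6% to 48.2%) and 666 of 1138 at day 14 (58.5%, 55.6% to 61.4%). Cd4 gives few UMIs per cell, so its detection depends on depth. After thinning to 1500 UMIs per cell the shares were 9.09% (3 of 33), 24.8% (36 of 145) and 39.9% (282 of 707), in the same order. A T cell with no UMI of Cd4, Cd8a or Cd8b1 entered neither class.

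The cells were read at similar depth in the 2 late libraries. The median was 5462 UMIs per CD4 T cell at day 7 (2893 to 18630) and 5016.5 at day 14 (737 to 108083). The summed totals were 578030 and 5314552 UMIs. Mitochondrial genes gave a median of 4.55% of a cell's UMIs at day 7 and 0.816% at day 14. CD8 T cells stood at 4.30% and 0.867%, so the 2 libraries differed in this sign of RNA quality in both classes.

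Of the marker genes given for the class, Cd4 and Cd3e were used to choose the cells, so their presence tells nothing more. Cd3e was found in 90.9% of CD4 T cells at day 7 and 95.2% at day 14. Ltb, which the rule did not use, was found in 95.5% and 93.2%, and Foxp3 in none at day 7. Icos, which marks activated helper cells, was found in 46.6% and 82.9%. The T cell kinase gene Lck, also outside the rule, was found in 87.5% and 82.3%, and the adaptor Lat in 76.1% and 89.3%. In oligodendrocyte barcodes, which should lack these genes, the day 14 shares ran from 3.03% for Lck to 3.99% for Ltb among Ltb, Lck and Lat, at a median depth of 9076 UMIs. These shares serve as the background level of a UMI in a cell type that should lack the gene.

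The values that chose the cells are given once, as a description. 8 CD4 T cells had exactly 2 of the 6 T cell genes, and 6 barcodes stood just outside with exactly 1. Cd4 was read with exactly 1 UMI in 48 of the 88 cells at day 7 (54.5%) and 361 of the 666 at day 14 (54.2%). 65 cells lay between 0.1% and 0.2% of C1q UMIs, and 10 barcodes lay just outside, between 0.2% and 0.3%. In all, 145 barcodes met every other condition but had 0.2% C1q UMIs or more. Of these, 127 were from day 14 and had a median of 18283 UMIs. 27 to 59 barcodes were shared by any pair of libraries, at most 0.483% of the smaller library, and none of the shared ones was a CD4 T cell in both.

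Some barcodes carried RNA of other cell types, and results that they touch are given with and without them. A barcode was called mixed when over 1% of its UMIs were immunoglobulin, haemoglobin, oligodendrocyte, astrocyte, neutrophil, MHC class II or Ttr (choroid plexus) genes. This marked 81 of the 666 cells at day 14, which held 31.0% of the summed UMIs, and 9 of the 88 at day 7, which held 19.8%. At day 14, 52 of the marked cells had MHC class II genes, 19 oligodendrocyte genes, 8 immunoglobulin genes, 4 haemoglobin genes and 4 Ttr, and a cell can have several. Immunoglobulin genes made up 4.48% of all UMIs at day 14, and 98.3% of them sat in 8 cells. Apoe, a lipid carrier of glia and macrophages, had a UMI in all 666 cells, and its level was 6055 counts-per-million (CPM) at day 7 and 2762 CPM at day 14. The 12 microglia markers summed to 1173 CPM at day 7 and 698 CPM at day 14, with no marker at 0. In oligodendrocyte barcodes of the same libraries the sums were 899 and 586 CPM. A doublet caller marked 4 of the 88 and 20 of the 666 cells, and these were kept. The part of this RNA in the results was not tested, beyond the values without mixed barcodes.

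Between day 7 and day 14, the genes of regulatory and type 3 programmes and several activation receptors stood higher in the CD4 T cells of the later library, and heat shock, early response and interferon-induced genes stood lower. For each library the UMIs of all its CD4 T cells were added up per gene and set against their total as CPM. A gene counted as measured with at least 20 UMIs over both sums and a mean of at least 50 CPM, and as called when the 2 sums differed at least 2-fold. A gene can reach that mean through the group where it is high, so counts over measured genes of a list describe those genes and not the whole list. Of 2928 measured genes, 92 were at least 2-fold higher at day 14 (3.14%) and 170 at least 2-fold lower (5.81%), and the median log2 ratio was 0.05. Without the mixed barcodes (585 against 79 cells), 98 of 2893 were higher (3.39%) and 122 lower (4.22%). Other scaling moved the balance of calls: with TMM factors 135 were higher and 138 lower, or 49.5% higher in place of 35.1%, and the median ratio became 0.18. With the size factors of DESeq2 the calls were 132 and 141 and the median 0.16.

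Regulatory T cell genes stood higher at day 14. Of the 16 genes in the list 7 were measured, and 6 of these were at least 2-fold higher at day 14 and 0 lower, with a median log2 ratio of 1.98 (2.20 without mixed barcodes, again 6 higher). 4 of the 7 were under 50 CPM at day 7 and were measured through day 14. Of the 3 at 50 CPM or more in both libraries 2 were higher. Ctla4, which competes with Cd28 for its ligands, stood at 29.4 CPM at day 7 and 235 CPM at day 14, a log2 ratio of 3.00 (2.31 to 3.78). Il2ra, the high-affinity interleukin 2 receptor chain, stood at 22.5 and 89.0 CPM (log2 ratio 1.98, 1.2 to 2.90). At day 7 it was seen in 5 cells, and without mixed barcodes the levels were 6.47 and 107 CPM. Ikzf2, which encodes Helios, stood at 45.0 and 189 CPM, and Tnfrsf4, the OX40 costimulatory receptor, at 69.2 and 263 CPM. Capg, an actin-capping protein gene, stood at 58.8 and 434 CPM, and Izumo1r, a folate receptor-like gene of regulatory and anergic T cells, at 46.7 and 101 CPM. The seventh measured gene, Tnfrsf18 (GITR), stood at 145 and 198 CPM, within 2-fold. In CD8 T cells of the same libraries the list had a median log2 ratio of 0.91 over 3 measured genes. Whatever the level, 11 of the 16 genes lay above 0 in CD8 T cells and 1 below. In CD4 T cells these counts were 14 and 1, and in oligodendrocyte barcodes 12 and 1. Ikzf2 stood at 22.5 and 93.1 CPM in CD8 T cells, and Ctla4 at 13.9 and 37.3 CPM. Whether the classes differ in this was not tested.

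Foxp3 itself was read at the edge of detection. It had 0 UMIs in the 88 cells of day 7 (a count of 0 allows up to 3.41% of cells with a UMI, and says nothing of cells that hold the RNA unread) and 247 UMIs in 80 of the 666 cells of day 14 (12%, 9.64% to 14.7%). Its day 14 level of 46.5 CPM was at least 8.95-fold higher than the limit that 3 UMIs set at day 7. 24 of the 80 cells had 1 UMI and 56 had at least 2 (8.41% of all). After thinning to 1500 UMIs the share at day 14 was 34 of 659 cells, or 5.16%. CD8 T cells had Foxp3 in 10 of 472 cells (2.12%) at a median of 4901.5 UMIs, and oligodendrocyte barcodes in 6 of 2078 (0.289%) at 9076 UMIs. The share in CD4 T cells was above both.

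Genes of the Th17 and type 3 programme were also higher at day 14. 4 of the 11 genes were measured and all 4 were at least 2-fold higher, with a median log2 ratio of 2.19 (2.39 without mixed barcodes). 3 of the 4 were under 50 CPM at day 7 and were measured through day 14. Il17a had 0 UMIs at day 7 and 893 UMIs in 65 cells at day 14 (168 CPM), at least 32.4-fold above the 3 UMI limit. 44.3% of these UMIs sat in 10 cells. After thinning, Il17a was found in 0 of 88 cells at day 7 and in 6.83% at day 14 (5.02% to 9.03%), against 1.5% of CD8 T cells and 0.0993% of oligodendrocyte barcodes. The channel-like genes Tmem176a and Tmem176b stood at 39.8 and 48.4 CPM at day 7 and at 194 and 208 CPM at day 14. Rora, a nuclear receptor of type 3 lymphocytes, stood at 74.4 and 190 CPM. The interleukin genes Il17f and Il22 reached 12 and 6 UMIs at day 14 and 0 at day 7, too few to compare.

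The activation receptors differed among themselves. Their list shares Il2ra, Tnfrsf4, Tnfrsf9 and Tnfrsf18 with the regulatory list, so the counts of these lists overlap. Of the 16 costimulation and activation genes 14 were measured, and 4 were at least 2-fold higher at day 14 and 0 lower (5 and 0 without mixed barcodes), with a median log2 ratio of 0.37. 2 of the 14 were under 50 CPM at day 7, and of the 12 at 50 CPM or more in both libraries 2 were higher. Icos stood at 173 CPM at day 7 and 549 CPM at day 14 (log2 ratio 1.67, 1.38 to 1.97). Its thinned share of cells was 21.6% and 50.7%, and the intervals did not overlap. Tnfsf8, the CD30 ligand, stood at 26.0 and 74.3 CPM, and at 8.63 and 100 CPM without mixed barcodes. Cd40lg, the ligand through which helper cells license B cells and antigen-presenting cells, stood at 107 and 87.1 CPM and in 17.0% and 16.8% of thinned cells. Cd28 was at 256 CPM in both libraries, and Ltb stood at 799 and 825 CPM. Maf, outside this list, stood at 287 and 723 CPM, and its thinned share was 31.8% at day 7 and 57.4% at day 14.

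**Figure D2:**
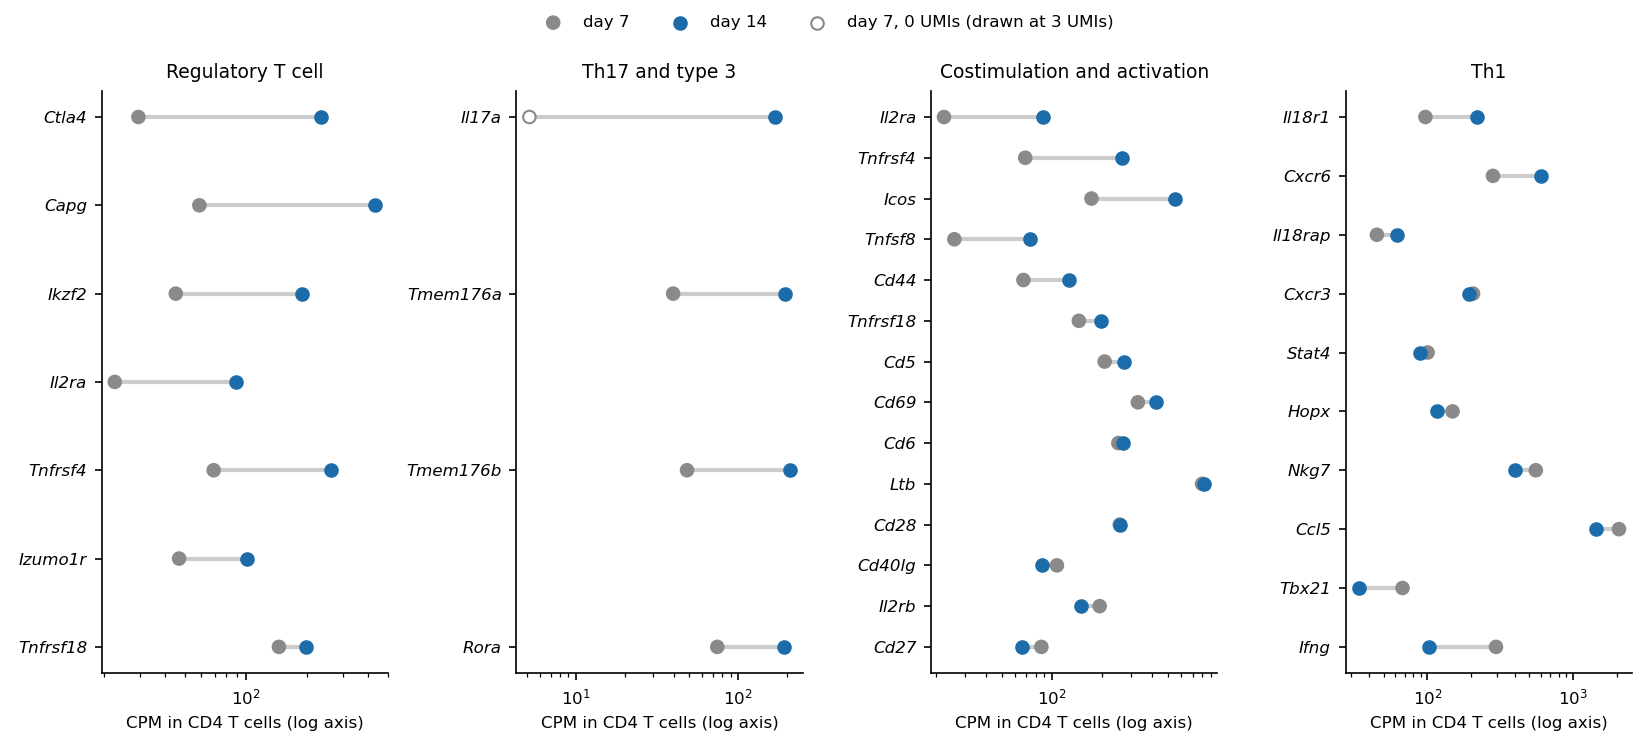
Level of measured genes of 4 lists in the summed CD4 T cells of the day 7 and day 14 libraries, in CPM on a log axis that differs between panels. A line joins the 2 libraries, and an open circle marks 0 UMIs, drawn at the level of 3 UMIs. All 4 Th17 and type 3 genes and all 7 regulatory genes lie to the right at day 14, while Ifng and Tbx21 lie to the left.

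The Th1 list was split. Of 11 measured genes, 3 were at least 2-fold higher at day 14 and 2 lower, with a median log2 ratio of -0.17 that was above 0 with at most 15000 UMIs per cell and as a mean over cells. Ifng, which encodes interferon gamma, stood at 296 CPM at day 7 and 102 CPM at day 14 (log2 ratio -1.53, -1.78 to -1.27). Its thinned share was 22.7% (14.5% to 32.9%) and 12.3% (9.88% to 15%). Tbx21, the Th1 master regulator, stood at 67.5 and 33.7 CPM, a ratio at the 2-fold line that was within it without mixed barcodes (-0.95). Among those higher at day 14, the interleukin 18 receptor gene Il18r1 stood at 96.9 and 218 CPM and Cxcr6, a receptor of tissue-resident T cells, at 282 and 602 CPM. Cxcr3 stood at 206 and 192 CPM. In CD8 T cells Ifng stood at 263 CPM at day 7 and 89.1 CPM at day 14.

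Genes of homing and residence were mixed. Of the 6 measured naive and recirculating genes 1 was at least 2-fold higher at day 14 and 2 were lower, and without mixed barcodes 2 were higher and 1 lower. Of 9 measured tissue residence genes, 3 were higher and 0 lower: Cxcr6, the G protein regulator Rgs1 at 474 and 1047 CPM, and the transcription factor Bhlhe40 at 104 and 259 CPM. Ccr2, a receptor for inflammatory recruitment, stood at 116 and 372 CPM, and the interleukin 7 receptor Il7r at 126 and 393 CPM. Klf2, which keeps T cells recirculating, stood at 436 CPM at day 7 and 90.9 CPM at day 14 (log2 ratio -2.26, -2.48 to -2.04), and in 28.4% and 10.3% of thinned cells. Its target S1pr1, the exit receptor, stood at 168 and 51.7 CPM, but at 84.2 and 68.4 CPM without mixed barcodes, so the 2-fold difference rested on them. Ccr7, the lymph node homing receptor, was not measured at day 7 (5 UMIs). At day 14 it had 483 UMIs in 66 cells, and without mixed barcodes its level was 46.3 CPM in place of 90.9 CPM. CD8 T cells of the same libraries had Klf2 in 39.2% of thinned cells at day 7 and in 11.1% at day 14. They had Il7r in 10.4% and 23.9%, against 17.0% and 40.8% of CD4 T cells. Oligodendrocyte barcodes had Klf2 in 2.58% and 0.596%, and Il7r in 0.126% and 0.298%. Whether the classes differ in this was not tested.

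Among secreted cytokines, those of Th2 cells were nearly absent. Il4, Il5 and Il13 had 5, 1 and 1 UMIs in the 666 cells of day 14 and 0 at day 7. Other genes of the Th2 list were present. Of its 8 genes 2 were measured, of which 1, Maf, was at least 2-fold higher at day 14 and 0 were lower. Il21, a cytokine that helps B cells, had 78 UMIs in 31 cells at day 14, 0 at day 7 and 0 in CD8 T cells. Il10, an inhibitory cytokine, had 3 UMIs at day 7 (5.19 CPM) and 171 at day 14 (32.2 CPM). The CD4 T cells summed to 578030 UMIs at day 7 and 5314552 at day 14, so raw UMIs of the 2 libraries are not on 1 scale. Tnf stood at 84.8 and 87.7 CPM, and Tgfb1 at 119 and 123 CPM, each with an interval of the log2 ratio that includes 0. Galectin 1, encoded by Lgals1, stood at 401 and 1057 CPM, and S100a4 at 413 and 808 CPM. Of the 12 measured S100, galectin and annexin genes 1 was at least 2-fold higher (2 without mixed barcodes). Of the 8 measured cell division genes 1 was higher, and the proliferation gene Mki67 stood at 72.7 and 63.6 CPM. The m6A demethylase gene Alkbh5, which the series title names, stood at 60.6 and 80.5 CPM in CD4 T cells (log2 ratio 0.41, -0.09 to 0.95). Socs3, the feedback inhibitor of cytokine signalling also named there, stood at 83.0 and 44.4 CPM (-0.90, -1.36 to -0.42), and at 82.0 and 33.0 CPM without mixed barcodes.

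The lists that stood lower at day 14 included the dissociation and heat shock genes. Of 19 genes 18 were measured, 9 were at least 2-fold lower and 0 higher, with a median log2 ratio of -0.97 (-1.23 without mixed barcodes, again 9 lower). The inducible HSP70 gene Hspa1a stood at 569 CPM at day 7 and 45.2 CPM at day 14 (log2 ratio -3.66, -3.90 to -3.41), and its near-identical copy Hspa1b, whose reads may be split between the pair, at 407 and 67.9 CPM. Dnajb1, an HSP40 cochaperone, stood at 381 and 79.8 CPM, and Hsp90aa1, the inducible HSP90, at 1509 and 466 CPM. Hspa1a was found in 45.5% of thinned cells at day 7 and in 4.25% at day 14. CD8 T cells of the same libraries had a list median of -1.16 over 17 measured genes. Oligodendrocyte barcodes had 0.36 over 9 measured genes, but over all 19 genes 12 ratios lay below 0 there, against 19 of 19 in both T cell classes. Hspa1a in them stood at 23.6 and 8.14 CPM. Of the 12 measured T cell receptor early response genes, several of which also belong to the heat shock list, 3 were lower and 0 higher (4 and 0 without mixed barcodes). Nr4a1, an immediate readout of receptor signalling, stood at 284 and 121 CPM. The mitochondrial share differed between the libraries in the same direction, 4.55% against 0.816%, and its part in these lists was not tested.

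All 20 interferon response genes were measured, and 5 were at least 2-fold lower at day 14 and 0 higher, with a median log2 ratio of -0.79 (-0.68 and 6 lower without mixed barcodes). Rsad2, which encodes viperin, stood at 192 CPM at day 7 and 56.4 CPM at day 14 (log2 ratio -1.77, -2.09 to -1.44). Ifit3, an antiviral tetratricopeptide protein gene, stood at 270 and 89.0 CPM, and its thinned share was 27.3% and 12%. Oasl2, an oligoadenylate synthetase-like antiviral gene, stood at 125 and 37.6 CPM, Irf7, a transcription factor that amplifies interferon production, at 256 and 109 CPM, and Usp18, which removes ISG15 from proteins, at 131 and 57.6 CPM. Isg15, the ubiquitin-like modifier itself, stood at 516 and 320 CPM. In CD8 T cells of the same libraries the list had a median of 0.20 over 19 measured genes, where the median over all measured genes was 0.06 (0.05 in CD4 T cells). Isg15 there stood at 424 CPM at day 7 and 546 CPM at day 14, and Ifit3 at 212 and 203 CPM. Whether the classes differ in this was not tested, since each value is 1 library.

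**Figure D3:**
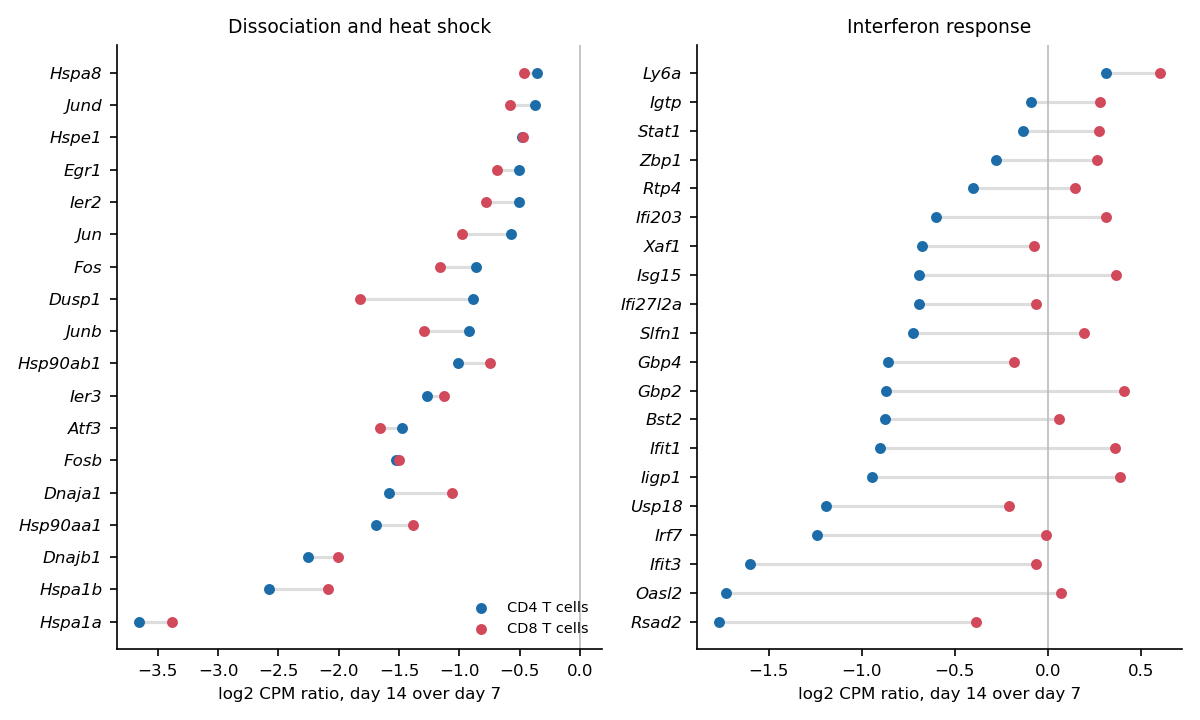
Log2 ratio of CPM, day 14 over day 7, for each gene of the dissociation and heat shock list (left) and the interferon response list (right), in CD4 and CD8 T cells of the same 2 libraries. Each point is the ratio of 2 sums and a line joins the classes. In the heat shock list both classes lie below 0 for every gene drawn, while in the interferon list the CD8 point lies to the right of the CD4 point for every gene, with medians over the measured genes of 0.20 and -0.79.

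The interferon genes were also looked at in sequence, because interferon-stimulated promoters often hold a direct repeat bound by the factor ISGF3 and by interferon regulatory factors. Of the 20 genes, 12 were in a RefSeq promoter table of GRCm38.p6 that spans 250 bases before to 50 bases after each start. The letters GAAA, any 2 bases and GAAA again were searched on both strands. They were found in 8 of the 12 genes and in 1079 of all 27025 genes of the table (3.99%), or 1131 of its 32851 promoters (3.44%). A match is a description of letters and shows no binding. The stretches around the matches are shown for 4 genes described above or in the plot, 5′ to 3′ on the strand of the gene, with 25 bases on either side and the matches in capitals. Isg15 is at chr4:156200850-156200921 (minus strand), with 3 overlapping matches whose first base lies 78 to 66 bases before the start. Ifit1 is at chr19:34640760-34640838 and Ifit3 at chr19:34583348-34583441 (both plus strand), each with 2 matches on the other strand. Rsad2 is at chr12:26456538-26456597 (minus strand), with 1 match on the other strand, 120 bases before the start.
Isg15: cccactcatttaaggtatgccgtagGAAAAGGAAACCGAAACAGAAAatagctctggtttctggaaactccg
Ifit1: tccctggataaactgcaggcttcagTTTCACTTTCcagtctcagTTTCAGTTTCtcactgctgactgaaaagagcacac
Ifit3: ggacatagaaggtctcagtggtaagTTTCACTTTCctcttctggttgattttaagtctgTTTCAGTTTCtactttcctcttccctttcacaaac
Rsad2: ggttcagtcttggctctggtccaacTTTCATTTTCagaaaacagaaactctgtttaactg

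The genes with the most extreme ratios between day 7 and day 14 were mostly genes of other cell types. Some immunoglobulin and astrocyte genes stayed among the most extreme without mixed barcodes. By the rule for named genes (the 10 highest and 10 lowest ratios whose interval excluded no difference, at 50 CPM or more in either group and in at least 10 cells), the highest were the immunoglobulin and haemoglobin genes Ighg2b, Igkc, Igha, Ighg1, Iglv1, Jchain, Hba-a1, Hba-a2, Hbb-bt and Hbb-bs. The lowest included the astrocyte or glial genes Slc1a2, Sparcl1, Slc4a4, Ntsr2, Aldoc and Bcan and the neutrophil genes S100a9 and S100a8. Without mixed barcodes the same rule, applied after these values were seen, named Il17a, Igkc, Ighg2b, Il2ra, Tnfsf8, Capg, Ctla4, Ube2c, Tmem176b and Camk2n1 as highest. Ube2c, a ubiquitin-conjugating enzyme of mitosis, stood there at 17.3 CPM at day 7 and 106 CPM at day 14. These levels were 8 UMIs in 2 cells and 388 UMIs in 23 cells. The lowest included Sparcl1, Aldoc, Lars2, Slc1a2, Hspa1a, Cxcl2, Atf3, Clu and Ptn. Astrocyte or glial genes were still among them, with log2 ratios without mixed barcodes of -4.88 for Sparcl1, -4.60 for Aldoc and -4.50 for Slc1a2. Cxcl2 had 56 UMIs in 2 of the 79 cells at day 7 and 25 UMIs in 12 of the 585 at day 14. The 7 astrocyte markers summed to 3818 CPM at day 7 and 72.1 CPM at day 14 in all CD4 T cells, and their part in the calls was not tested.

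CD4 T cells differed from CD8 T cells of the same library above all in helper and regulatory genes against cytotoxic genes. At day 14, 2809 genes were measured, of which 56 were at least 2-fold higher in CD4 T cells (1.99%) and 31 lower (1.10%). Without mixed barcodes (585 against 442 cells) 71 of 2806 were higher (2.53%) and 30 lower (1.07%). At day 7, 59 of 2875 were higher (2.05%) and 45 lower (1.57%), and without mixed barcodes (79 against 115 cells) 32 of 2769 were higher (1.16%) and 28 lower (1.01%). The genes that made the classes, Cd4, Cd8a and Cd8b1 and the T cell receptor genes, were left out. Of the 56 genes higher at day 14, 21 were measured at day 7, where 18 had the same sign and 5 were called. Of the 31 lower genes 27 were measured at day 7, 21 had the same sign and 11 were called.

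Maf, Icos and Cd40lg were on the CD4 side in both libraries. Maf stood at 723 CPM in CD4 and 116 CPM in CD8 T cells at day 14 (log2 ratio 2.65, 2.49 to 2.81) and at 287 and 63.3 CPM at day 7 (2.18). Icos stood at 549 and 133 CPM at day 14 (log2 ratio 2.04) and at 173 and 78.3 CPM at day 7 (1.14). Cd40lg stood at 107 and 6.43 CPM at day 7 (log2 ratio 4.06). At day 14 it stood at 87.1 and 4.62 CPM, under the limit for a measured gene, and at 113 and 5.26 CPM without mixed barcodes. The counting intervals of all these ratios excluded 0.

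The regulatory and costimulatory lists stood higher in CD4 T cells of day 14. They share Il2ra, Tnfrsf4, Tnfrsf9 and Tnfrsf18, so their counts are not separate. Of the 7 measured regulatory genes 6 were at least 2-fold higher and 0 lower, with a median log2 ratio of 1.79 (7 of 7 and 2.43 without mixed barcodes). With mixed barcodes kept, 4 of the 7 were under 50 CPM in CD8 T cells and were measured through CD4 T cells. Of the 3 at 50 CPM or more in both classes 2 were higher. Tnfrsf4 stood at 263 CPM against 37.6 CPM and Ctla4 at 235 against 37.3 CPM. Foxp3 stood at 46.5 against 10.9 CPM, and Il17a at 168 against 36.6 CPM. Of the 12 measured costimulation genes 5 were higher and 0 lower, with a median of 0.81, and without mixed barcodes 9 of 14 were higher, with a median of 1.22. With these barcodes kept, 2 of the 12 were under 50 CPM in CD8 T cells. Of the 10 at 50 CPM or more in both classes 3 were higher. At day 7, 2 regulatory genes were measured, of which 1, Tnfrsf18, was higher (145 against 57.9 CPM).

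Cytotoxic genes stood lower in CD4 T cells. At day 14 all 9 measured genes of the list were at least 2-fold lower, with a median log2 ratio of -1.99 (-2.16 without mixed barcodes, again 9 of 9). With mixed barcodes kept, 3 of the 9 were under 50 CPM in CD4 T cells and were measured through CD8 T cells. The 6 at 50 CPM or more in both classes were all lower. The granzyme gene Gzma stood at 4.14 CPM in CD4 and 195 CPM in CD8 T cells (log2 ratio -5.56, -6.24 to -4.94), and Gzmk at 25.4 and 211 CPM. Gzmb, another granzyme, stood at 94.8 and 307 CPM. Ccl5, a chemokine of effector T cells, stood at 1449 and 7605 CPM, Nkg7, a granule protein gene, at 396 and 1867 CPM, and the killer cell lectin receptor Klrd1 at 74.3 and 296 CPM. At day 7, 6 of 10 measured genes were lower, with a median of -1.03 (4 of 11 and -0.92 without mixed barcodes), and Gzma stood at 6.92 and 102 CPM. 3 of the 10 were under 50 CPM in CD4 T cells, and of the 7 at 50 CPM or more in both classes 3 were lower. CD4 T cells still held some of these transcripts: Ccl5 was found in 46.1% and Nkg7 in 37.8% of thinned cells at day 14, against 4.22% and 1.39% of oligodendrocyte barcodes.

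By the rule for named genes, without mixed barcodes, the genes highest in CD4 over CD8 T cells at day 14 were Cd40lg, Tnfrsf4, Maf, Ctla4, Podnl1, Socs2, Tnfsf8, Izumo1r, Ccl1 and Furin. Furin, a proprotein convertase, stood at 229 against 39.7 CPM, and Socs2, a suppressor of cytokine signalling, at 114 against 16.6 CPM. Ccl1, a chemokine that binds Ccr8, had 339 UMIs in 18 cells there. The lowest were Cd160, Gzma, Cd7, Klrd1, Xcl1, Ccl4, Ly6c2, Gzmk, Ccl5 and Slamf7. With mixed barcodes kept, Igkv19-93, Ighg1, Ighg2b, Igha, Ttr and Slpi came ahead of these on the higher side, and Fabp7, Ighg2c and Ighm were among the lowest. At day 7, without mixed barcodes, Cd40lg, Maf and the inflammatory caspase Casp1 were the 3 highest. The interferon-induced genes Cxcl10, Oasl2 and Iigp1 were also among the 10 highest, with Cxcl10 at 531 against 169 CPM. Cxcl10 was seen there in 21 of 79 CD4 and 30 of 115 CD8 T cells, Oasl2 in 32 and 18, and Iigp1 in 40 and 28. With mixed barcodes kept, 10 cells held 89.3% of the Cxcl10 UMIs in CD4 T cells and 74.5% in CD8 T cells. Gzma, Klrk1, Klrd1, Ccl4 and Xcl1 were among the 10 lowest. The others were Spock2, Pltp, Itm2a, Bsg and the endothelial gene Cldn5. Cldn5 had 151 UMIs in 4 CD8 T cells and Itm2a, also an endothelial marker, 93 UMIs in 11. The rule for mixed barcodes held no endothelial genes. With mixed barcodes kept, the 7 endothelial and mural markers summed at day 7 to 235 CPM in CD4 and 591 CPM in CD8 T cells. The part of such RNA in these ratios was not tested.

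**Figure D4:**
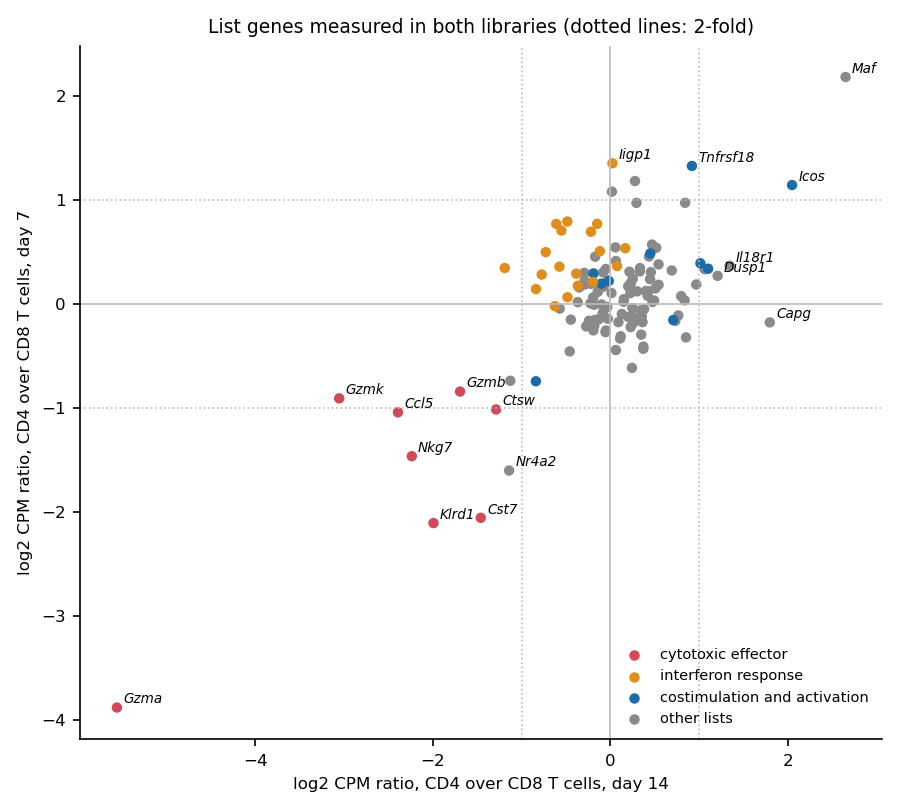
Log2 ratio of CPM, CD4 over CD8 T cells, at day 14 (horizontal) and day 7 (vertical) for genes of the lists measured in both libraries, with dotted lines at 2-fold. Each point is 1 gene, and a gene of several lists takes the colour of the named list. Cytotoxic genes lie at the lower left, down to Gzma at -5.56 and -3.88, and Maf and Icos at the upper right. Interferon genes lie mostly above 0 at day 7 and below 0 at day 14.

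The interferon list lay on different sides in the 2 libraries. Its median log2 ratio of CD4 over CD8 T cells was 0.43 at day 7 (2 of 20 genes at least 2-fold higher, 0 lower) and -0.48 at day 14 (0 of 19 higher, 1 lower). Without mixed barcodes the medians were 0.41 and -0.39. Ifit3 stood at 270 CPM in CD4 and 212 CPM in CD8 T cells at day 7, and at 89.0 and 203 CPM at day 14 (log2 ratio -1.19, -1.37 to -1.01). Iigp1, an immunity-related GTPase gene, stood at 197 and 77.2 CPM at day 7 and at 103 and 101 CPM at day 14. The medians over all genes were 0.02 at day 7 and 0.01 at day 14. The median depth was 5462 UMIs in CD4 and 6394 in CD8 T cells at day 7, and 5016.5 and 4901.5 at day 14, and its part was not tested.

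Within the CD4 T cells of day 14, the 80 cells with a Foxp3 UMI were set beside the 586 without. The former were deeper, with a median of 10208.5 against 4768.5 UMIs, so that a cell with 0 UMIs is not shown to lack Foxp3. Of 2936 measured genes, 88 were at least 2-fold higher in cells with Foxp3 (3.00%) and 52 lower (1.77%). Without mixed barcodes (67 against 518 cells) 101 of 2973 were higher (3.40%) and 46 lower (1.55%). With TMM factors the calls were 60 higher and 70 lower, or 46.2% higher in place of 62.9%, and the median ratio of all genes was 0.01 in place of 0.17. All 9 measured regulatory genes besides Foxp3 were higher, with a median log2 ratio of 1.93 (1.64 without mixed barcodes). 3 of the 9 were under 50 CPM in the cells without Foxp3, and the 6 at 50 CPM or more in both were all higher. Il2ra stood at 302 CPM with and 40.2 CPM without Foxp3, Ikzf2 at 587 and 98.3 CPM, and Tnfrsf9, the 4-1BB receptor, at 171 and 15.3 CPM. Il10 stood at 132 and 9.25 CPM.

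Cell division genes were higher in the cells with Foxp3, though for Mki67 and Top2a not in these cells alone (see Il17a below). Of 15 measured genes 14 were at least 2-fold higher and 0 lower, with a median log2 ratio of 1.81 (15 of 16 and 1.89 without mixed barcodes). 9 of the 15 were under 50 CPM in the cells without Foxp3 and were measured through those with it, and of the other 6, at 50 CPM or more in both, 5 were higher. Mki67 stood at 167 and 40.0 CPM, and Top2a, a topoisomerase of dividing cells, at 217 and 73.8 CPM. The cells with Foxp3 were deeper, so thinned shares are given too. Thinning evens the depth of the genes compared, but the 2 groups were set by Foxp3 before thinning. The part of depth in that grouping was not tested. Top2a was found in 18.8% of cells with and 4.66% of cells without Foxp3 (10.9% to 29.0% against 3.10% to 6.71%), and Mki67 in 10.0% and 3.63%, with intervals that overlap. Of 10 measured Th1 genes, 2 were at least 2-fold lower and 0 higher (5 and 0 without mixed barcodes). Ifng was found in 2.5% and 13.6% of thinned cells, Cd40lg in 5% and 18.5%, and Cxcr6 in 38.8% and 63.4%, in each case with intervals that did not overlap. Ikzf2 was found in 60.0% and 13.6%, Ctla4 in 50% and 18.8%, and Gzmb in 27.5% and 5.53%. By the rule for named genes, without mixed barcodes, Klrg1, Ube2c, Itgae, Il10, Tnfrsf9, Cenpf, Ccnb1, Il2ra, Gzmb and Rapsn were the highest. The mitotic genes among them were seen in few cells with and without Foxp3: Ube2c in 10 and 13, Cenpf in 10 and 14, Ccnb1 in 8 and 12. Klrg1, a receptor of terminally differentiated T cells, stood at 217 against 11.3 CPM and Itgae, which encodes the CD103 integrin, at 102 against 7.53 CPM. The lowest were Ccl1, Tnfsf8, Ly6c2, Gramd3, Ifi213, Ccl5, Cd40lg, Ifi208, Tcf7 and Pde7a.

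The 65 cells with an Il17a UMI were set beside the rest in the same way, grouped before thinning, at a median of 7460 against 4881 UMIs. 8 of the 80 cells with Foxp3 also had Il17a (10.0%), against 9.73% of the others, and after thinning Foxp3 was found in 1.54% of the cells with Il17a and 5.56% of those without. The interleukin 1 receptor Il1r1 was found in 7.69% and 0.673% of thinned cells with and without Il17a, and Tmem176a in 49.2% and 10.9%. Maf was found in 87.7% and 54.0% and Icos in 73.8% and 48.1%. Top2a was found in 12.3% and 5.72% and Mki67 in 10.8% and 3.70%, with intervals that overlap. The direction of these division genes was thus not particular to the cells with Foxp3. The gamma delta T cell receptor genes Trdc and Tcrg-C1 were found in 13.8% and 16.9% of the cells with Il17a, against 1.52% of the others for each. 17 of the 65 cells had 1 or both of them without thinning. Gamma delta T cells are known producers of interleukin 17A, and how many of these 65 barcodes hold such cells was not tested. In all, 296 of the 666 cells had a UMI of Foxp3, Il17a or Ifng.

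**Figure D5:**
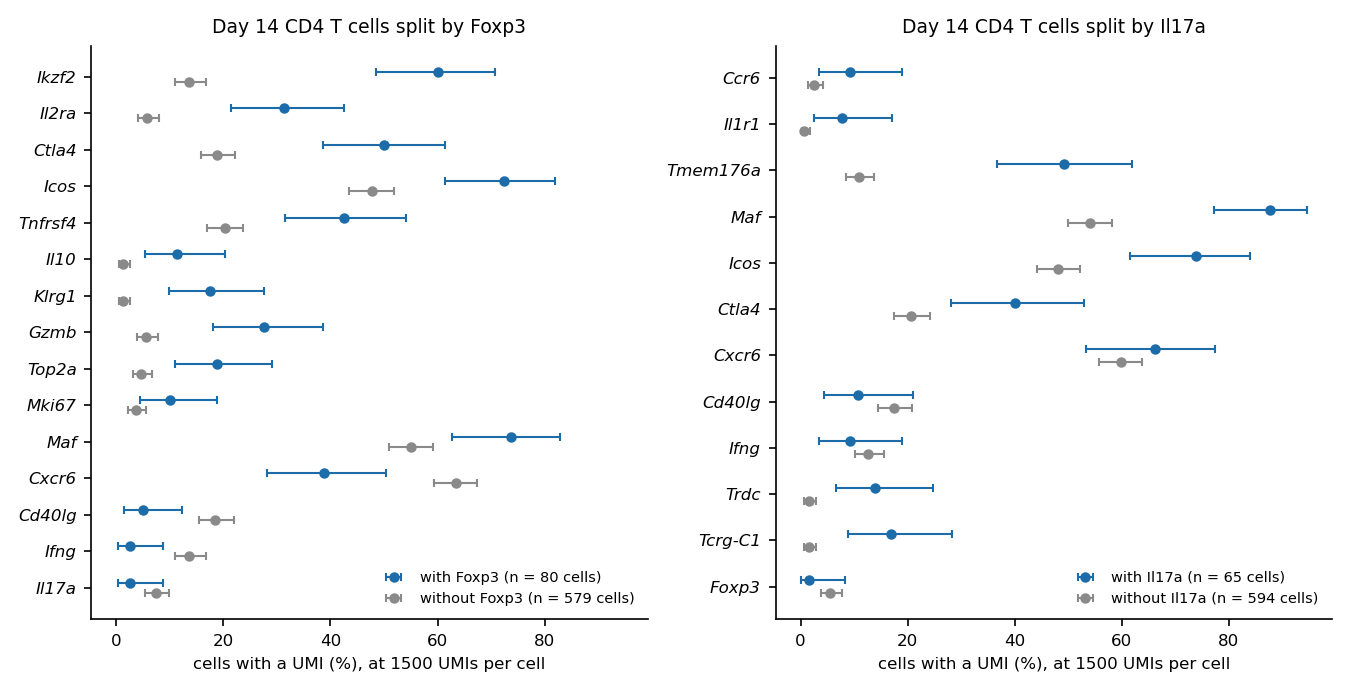
Percentage of day 14 CD4 T cells with a UMI of the genes shown after thinning to 1500 UMIs, in cells with and without Foxp3 (left, 80 and 579 cells) and with and without Il17a (right, 65 and 594 cells), from the 659 cells deep enough to thin. Cells were grouped by their UMIs before thinning. Points are shares and bars exact 95% intervals of counting. Ikzf2 stands at 60.0% against 13.6% on the left, and Tmem176a at 49.2% against 10.9% on the right.

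The 7 CD4 T cells of day 3 were too few for a comparison. They held 22704 UMIs in all. Ifng had 19 UMIs in 6 of the 7 cells, Ccl5 56 UMIs in 6 cells and Icos 15 UMIs in 5 cells. Foxp3 and Il17a had 0 UMIs and Cxcr6 had 1.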

How the data were processed

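Single-cell RNA sequencing was made on 5 libraries of mouse cortex, 1 per group. The deposited matrices hold UMI counts per gene and barcode, which the authors made with Cell Ranger 4.0.0, per the file headers. The submitters' processing notes name STAR 2.5.37 and Seurat 3.2.0, and as builds mm10 and GRCm38, with no role given. Gene positions came from GENCODE for GRCm38, and promoters from the RefSeq table of GRCm38.p6.

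The members and gene lists were chosen with earlier results of these data known. Doublets were looked for with Scrublet (scanpy 1.11.5), and no barcode was removed by it. UMIs were summed per library and class and scaled to counts-per-million (CPM), and the genes that chose the classes were left uncalled. Genes were called at 2-fold, with at least 20 UMIs over both sums and a mean of 50 CPM, and the 10 highest and 10 lowest ratios were named whose interval excluded no difference, at 50 CPM in either group and in at least 10 cells, leaving ribosomal, mitochondrial, Gm and Rik genes unnamed. Intervals are exact binomial or Poisson ranges at 95% and cover counting error only. A count of 0 was given a limit of 3. Shares were also computed after thinning each cell to 1500 UMIs. The comparisons of CD4 with CD8 T cells at day 7 and of cells with and without Foxp3, and the removal of mixed barcodes, were added after seeing the data. TMM (edgeR 4.0.16) and DESeq2 1.42.0 gave alternative scaling factors only. A few genes are not reported here. The summing and ratio scripts were tested on simulated data.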

Additional observations from a re-analysis of the deposited data

Results flagged for a closer look

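T cell barcodes with 0 UMIs of Cd4, Cd8a and Cd8b1 entered no comparison, and they outnumbered the CD4 T cells of both late libraries. There were 116 at day 7 and 777 at day 14, against 7 in the sham library. At day 14 their median was 4026 UMIs, and 65.1% had a UMI of Icos, 71.0% of Maf, 21.9% of Cd40lg and 6.95% of Foxp3. Trdc and Tcrg-C1, genes of gamma delta T cell receptors, were found in 23.3% and 26.4% of them, and Il17a in 16.3%, against 9.76% of CD4 T cells. At day 7, Il17a was found in 5.17% of these barcodes and in none of the 88 CD4 T cells. The part of depth in these shares was not tested.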

How the results depend on the processing

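With at least 1000 UMIs per barcode the day 1 share was 0. With 0 UMIs of C1q genes the shares were 0.0162% at day 7 and 0.795% at day 14, the Foxp3 share 5.26%, and the calls of CD4 against CD8 T cells at day 14 were 160 higher and 74 lower. The day 14 share was 6.32% with at most 15000 UMIs and 4.90% without mixed barcodes. The Foxp3 share was 5.16% after thinning and 8.41% at 2 UMIs or more. With no minimum level the calls, higher and lower, were 1111 and 1827 between the days, 1364 and 1055 for CD4 against CD8 at day 14, 996 and 1163 at day 7, and 1123 and 1068 for Foxp3. With a mean of 100 CPM they were 50 and 91, 32 and 20, 33 and 14, and 40 and 30. CD4 against CD8 at day 7 gave 38 and 24 with at most 15000 UMIs, and 32 and 28 without mixed barcodes.

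Log2 ratios that turned sign were of genes of other cell types. For CD4 against CD8 at day 14, with 0 C1q UMIs, Ighg1 was -0.68 and Ighg2b -0.42. With at most 15000 UMIs, Ighg2b was -0.12 and Ighm 0.52. Without mixed barcodes, Ighg1 was -0.13, Ighg2b -0.10, Ttr -0.013 and Ighm 0.67. At day 7, Slc1a2 was -0.16 and Nfasc 0.53 with at most 15000 UMIs, and -0.38 and 0.35 without mixed barcodes. The cause was not tested. Of 664 values of list medians under alternatives, the Foxp3 split not counted, 17 moved by over 1.5 times, and 44, of 17 medians, had the other sign. None of these medians was over 0.26 in size, and they include the Th1 and cell division lists between the days and between CD4 and CD8 T cells at day 14. With 0 C1q UMIs the comparison of days (95 against 2 cells), CD4 against CD8 at day 7 (2 against 1) and the Foxp3 split (5 against 90) could not be run. No paired analysis was possible because each group is 1 library. Depth limits the cells of day 7, where 3 UMIs are 5.19 CPM, and day 3 held too few cells to compare.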

Other observations

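Csf2, the gene of a myeloid growth factor, had 57 UMIs in 30 of the 666 CD4 T cells of day 14 and 3 UMIs in CD8 T cells of day 14. It had 0 UMIs in the CD4 T cells of day 7, whose smaller sum sets a limit of 5.19 CPM for 3 UMIs. The Ccr6 gene, a chemokine receptor, was found after thinning in 11.2% of the day 14 cells with Foxp3 and in 2.07% of those without, and in 9.23% of the cells with Il17a and 2.53% of those without.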
